A study of Mus musculus with 10 samples.

Results

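Receptor-type protein tyrosine phosphatases are membrane enzymes that remove phosphate from tyrosines of other proteins. The genes described here are the 8 whose symbol in the deposited count table is Ptprk, Ptprm, Ptpra, Ptpre, Ptprf, Ptprg, Ptprj or Ptprs, out of 38355 genes in that table. They were chosen by family and by the counts of Ptprk, which had been seen to be higher in the transgenic than in the wildtype libraries, so the difference between genotypes is given for all 8 as a description, without a test. All 8 passed the filter on low counts. The cells came from FVB/N mice, 5 wildtype animals and 5 Epac1-PLN transgenic animals, each genotype with 2 males and 3 females, all adult and untreated. Epac1-PLN is a fluorescent (FRET) cAMP sensor restricted to the heart, and the sources used here give neither the promoter that drives it, nor the number of founder lines, nor exact ages. Cardiomyocytes, the contractile cells of the heart, were released by Langendorff perfusion and their RNA was sequenced, with every library from a separate mouse.

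Library totals ranged from 10632224 to 20983754 counts. Rapgef3, the gene for Epac1, checked the genotype labels: it held 13387 to 27103 counts in the Epac1-PLN libraries and 146 to 284 in the wildtype libraries. One library, Epac1-PLN replicate 4, resembled the rest least (median Spearman's rho 0.983, against 0.986 to 0.991 for the others) and had the highest summed level of endothelial markers. Cardiomyocyte markers such as Myh6 and Tnnt2 summed to 111445 to 134458 CPM (counts scaled to the size of the library). Smooth muscle and pericyte markers summed to 1175 to 1592 CPM, endothelial markers to 542 to 1093 CPM, fibroblast markers to 284 to 499 CPM and macrophage markers to 33.6 to 81.8 CPM. In the smooth muscle and pericyte list Abcc9 alone averaged 835 of 1403 CPM in wildtype and 801 of 1465 CPM in Epac1-PLN cells. That sum therefore rests mostly on Abcc9 and does not rank these cells against the other types. Cardiomyocyte markers thus had by far the highest sum, and markers of the other cell types were detected. In such bulk RNA, fewer cells of a type and less RNA per cell cannot be told apart.

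As background, a receptor-type phosphatase has an extracellular part, a membrane span and catalytic domains inside the cell, and it counteracts tyrosine kinases at places where cells touch each other or the matrix. Ptprk and Ptprm carry a MAM domain and bind the same molecule on the neighbouring cell, and both are known from cadherin-based junctions, which in the heart lie in the intercalated disc. Ptprf (LAR) and Ptprs are receptors for heparan sulphate proteoglycans and synaptic adhesion proteins, Ptpra and Ptpre have short extracellular parts and activate Src family kinases, Ptprg carries a carbonic anhydrase-like domain that binds contactins, and Ptprj (also called DEP-1) dephosphorylates growth factor receptors.

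The catalytic domain is what the 8 genes share. Its signature, a cysteine that takes up the phosphate and an arginine that holds it, lies in a stretch of 10 codons that was searched for in the longest coding transcript of each gene in GENCODE M21 as histidine and cysteine, 5 further residues, arginine, and then serine or threonine. The 30 bases of the first match are shown for 7 members to set them side by side, with the cysteine and arginine codons in capitals. They are reference sequences of another mouse strain, not reads of these FVB/N animals.
Ptprk: cacTGCagtgctggtgctgggCGCacaggc
Ptpra: cacTGCagtgcaggtgtagggCGCactggc
Ptpre: cacTGTagcgcgggcgtgggtCGGactggc
Ptprf: catTGCagtgcgggtgtggggCGCacaggc
Ptprs: cacTGCagcgcgggtgtggggCGCactggc
Ptprg: cacTGCagcgctggtgtgggcAGGacaggc
Ptprj: catTGCagtgctggggttggaAGGacgggc

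Of these 30 bases, 26 in Ptpra and Ptprf, 25 in Ptprs, 24 in Ptprg, 23 in Ptprj and 21 in Ptpre were the same as in Ptprk. Among the members shown, those of the Src-activating pair thus stood at both ends of this order. The order holds for bases only. Translated, each of these stretches shared 9 of 10 residues with that of Ptprk. Ptprg and Ptprj gave no second match, but a second domain that departs from the searched pattern would be missed. A second match, from the second phosphatase domain, was found in 6 members and does not show that this domain is active. In Ptprk this second stretch, cacTGCttgaatggcggtgggCGCagtggc, shared 21 of 30 bases with its first. None of the 14 matched stretches lay within a single exon: each is interrupted by an intron. The first stretch of Ptprk spans chr10:28580540-28585581 (plus strand, mm10) and its second spans chr10:28592041-28592791.

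Ptprk (ENSMUSG00000019889) lies on chromosome 10, 28074820 to 28597397, with 13.3 kb of annotated exon in a span of 523 kb. The 250 bases before its start are printed because Ptprk is the member that was chosen for its difference between genotypes. They are RefSeq sequence of GRCm38.p6, chr10:28074570-28074819, plus strand, and the capitals mark the only copy of TGACG or its reverse complement CGTCA, the core of the cAMP response element.
Ptprk promoter: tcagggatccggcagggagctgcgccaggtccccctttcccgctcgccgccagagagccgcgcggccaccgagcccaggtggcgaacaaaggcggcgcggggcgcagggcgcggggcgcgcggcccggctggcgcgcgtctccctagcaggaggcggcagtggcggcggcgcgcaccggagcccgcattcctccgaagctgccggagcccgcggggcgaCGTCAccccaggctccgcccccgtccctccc

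The window is 79.2% G and C, against a median of 52.4% over all promoter windows. Of 32851 RefSeq windows of this length, 17.8% held TGACG on either strand, as did 4 of the 8 members (Ptprk, Ptprm, Ptpra and Ptprg). The full palindrome TGACGTCA was in 1.55% of windows and in 0 of the members' windows. A GC box (GGGCGG, either strand) was in 6 members against 32.7% of windows, and TATAAA in 0 against 12.4%. These are matches of letters and show no binding.

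The members differed widely in level. Per kilobase of exon, Ptprm was the highest in both genotypes, at 23.3 ± 2.66 CPM per kb in wildtype and 26.6 ± 1.45 CPM per kb in Epac1-PLN cells (SD, n = 5 each), above 87.4% of all tested genes. It made up 57.2 ± 2.92% of the summed level of the 8 genes per kb in wildtype and 58.8 ± 2.16% in Epac1-PLN cells. In wildtype cells Ptprs followed at 4.52 ± 0.472 CPM per kb, Ptprg at 4.15 ± 0.515, Ptpra at 3.37 ± 0.310 and Ptprk at 3.05 ± 0.237. The ranges of neighbours overlapped all through this group of 4 genes. Below them Ptprf stood at 1.26 ± 0.0955 CPM per kb, Ptpre at 0.701 ± 0.125 and Ptprj at 0.226 ± 0.0476, each clear of the range of the next. In Epac1-PLN cells the order was the same except that Ptprk, at 4.25 ± 0.276 CPM per kb, stood above Ptpra with no overlap of their ranges. Ptprj was near the bottom of the genes that passed the count filter, with 3.85% of tested genes below it.

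**Figure D1:**
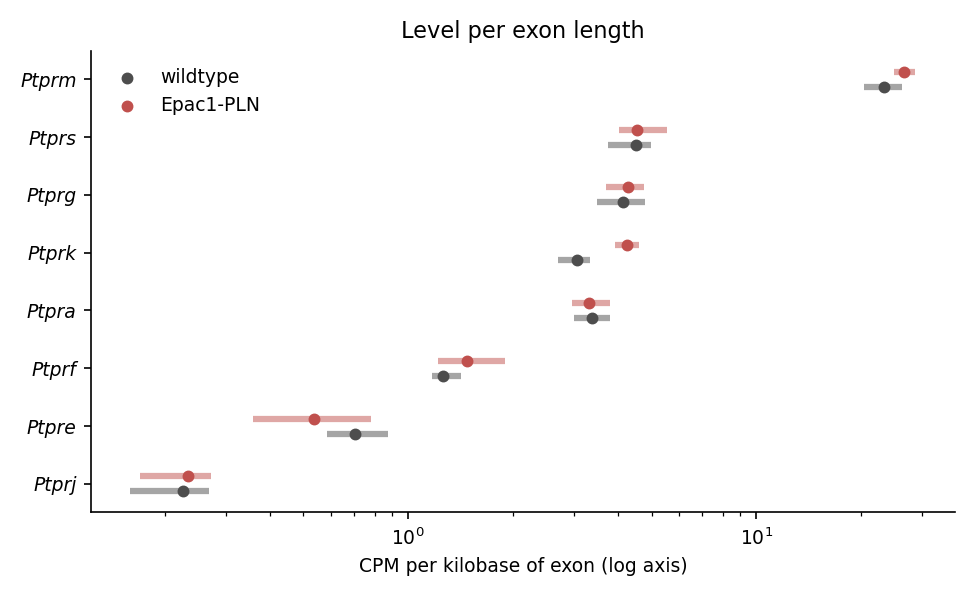
Level of the 8 genes in CPM per kilobase of exon on a log axis, with wildtype in grey and Epac1-PLN in red; dots are means of 5 libraries and bars run from the lowest to the highest library. Ptprm stands at 23.3 and 26.6 CPM per kb, alone above the other 7 genes, and Ptprj lowest.

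The MAM-domain pair was described first. Ptprk stood at 36.0, 39.4, 42.5, 41.3 and 44.2 CPM in wildtype replicates 1 to 5. It stood at 52.3, 56.8, 59.2, 61.2 and 53.9 CPM in Epac1-PLN replicates 1 to 5. Every Epac1-PLN library was above every wildtype library. The means were 40.7 ± 3.16 and 56.7 ± 3.68 CPM (SD, n = 5), a log2 difference of 0.48 ± 0.06 (SE) or 1.40-fold. The counts behind these values were 563 to 922 per library. Without Epac1-PLN replicate 4 the log2 difference was 0.47, and over 21 alternative ways of processing it ranged from 0.46 to 0.50. Groups of CPM values without overlap, in either direction, were found for 2.75% of the 12629 tested genes and for 1 of the 8 members. Every Epac1-PLN library was above every wildtype library for 1.5% of tested genes. By edgeR's quasi-likelihood test 0.641% of genes were called (adjusted p under 0.05). Nothing is read from these shares for the members, since the difference in Ptprk led to their choice.

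Ptprm (ENSMUSG00000033278, chromosome 17, 66666848 to 67354459) stood at 184, 180, 205, 226 and 232 CPM in wildtype replicates 1 to 5. It stood at 220, 226, 253, 238 and 237 CPM in Epac1-PLN replicates 1 to 5. The groups overlapped, with 3 of the 5 Epac1-PLN libraries above the highest wildtype library. Its log2 difference was 0.20 ± 0.07 (SE), smaller than that of Ptprk, and the ratio of Ptprm to Ptprk counts was 5.05 ± 0.353 in wildtype and 4.15 ± 0.208 in Epac1-PLN cells. The share of Ptprk in the summed level of the family per kb was 7.53 ± 0.388% in wildtype and 9.41 ± 0.302% in Epac1-PLN cells.

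**Figure D2:**
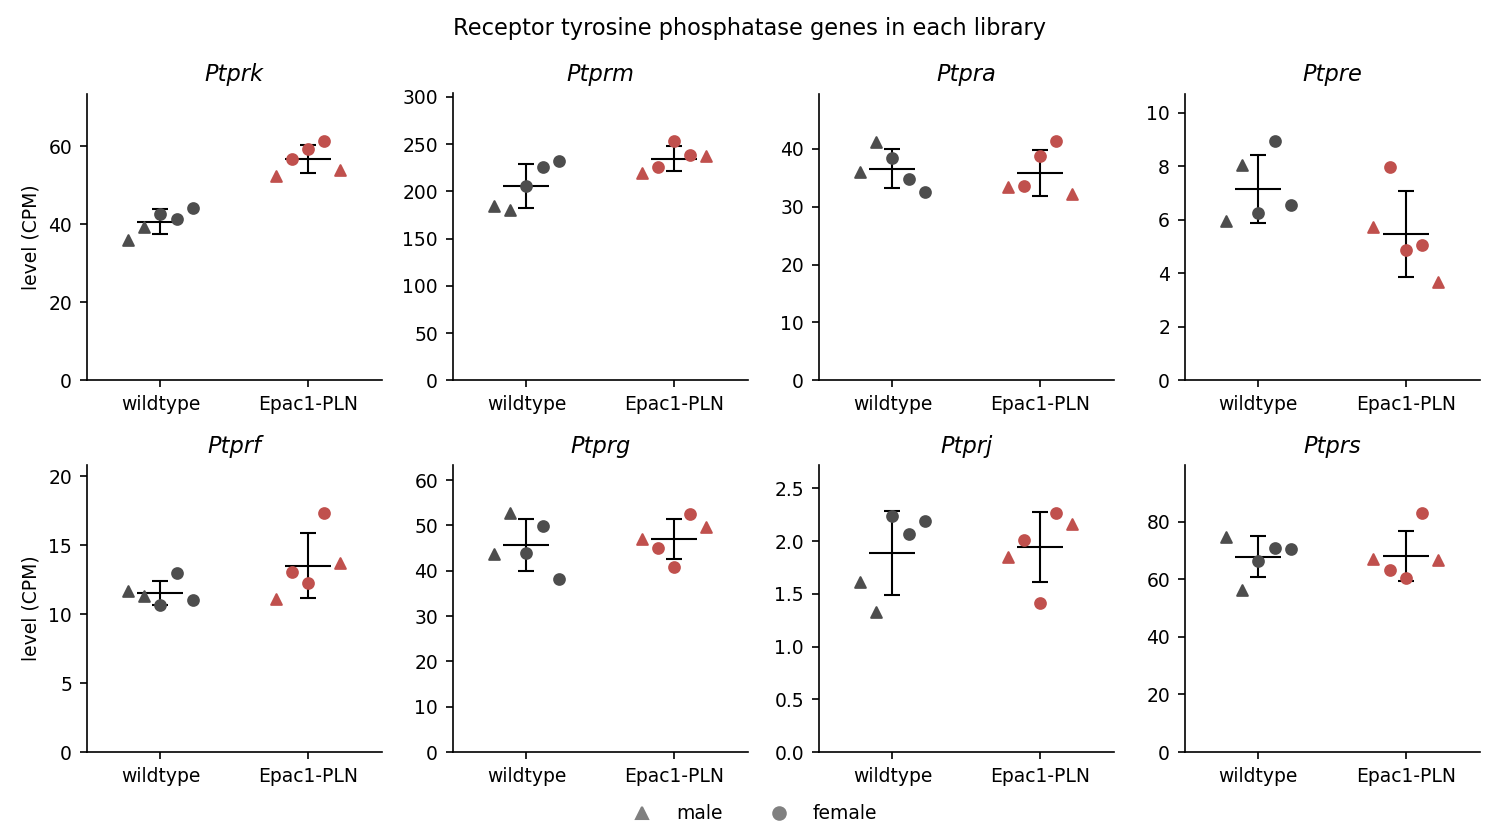
Level of each gene in CPM in every library, wildtype in grey and Epac1-PLN in red, males as triangles and females as circles; the horizontal mark is the mean and the bar 1 SD of 5 libraries. For Ptprk the lowest Epac1-PLN library (52.3 CPM) lies above the highest wildtype library (44.2 CPM), while the groups of the other 7 genes overlap.

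The heparan sulphate receptors were described next, and whether they differed from each other was not tested. Ptprf (ENSMUSG00000033295, chromosome 4) ranged from 10.7 to 12.95 CPM in wildtype and from 11.1 to 17.3 CPM in Epac1-PLN cells, with a log2 difference of 0.23 ± 0.12 (SE). Its highest value came from Epac1-PLN replicate 4, and without that library the log2 difference was 0.12 ± 0.10. Ptprs (ENSMUSG00000013236, chromosome 17) ranged from 56.3 to 74.8 CPM in wildtype and from 60.5 to 83.0 CPM in Epac1-PLN cells, with a log2 difference of 0.01 ± 0.10 (SE). That value was -0.08 without Epac1-PLN replicate 4, which again held the highest level.

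Of the Src-activating pair, Ptpre (ENSMUSG00000041836, chromosome 7) was the member with the largest difference downward. It stood at 5.95, 8.04, 6.28, 8.94 and 6.56 CPM in wildtype replicates 1 to 5 and at 5.75, 7.99, 4.88, 5.07 and 3.66 CPM in Epac1-PLN replicates 1 to 5. Of the 5 Epac1-PLN libraries, 4 lay below the lowest wildtype library and 1 did not. The log2 difference was -0.39 ± 0.19 (SE) and ranged from -0.57 in males alone to -0.27 in females alone. Counts were 44 to 138 per library, which by counting alone gives a coefficient of variation of about 10.2%, and the spread was 29.2% of the mean in Epac1-PLN cells. Ptpra (ENSMUSG00000027303, chromosome 2) ranged from 32.5 to 41.2 CPM in wildtype and from 32.1 to 41.3 CPM in Epac1-PLN cells, a log2 difference of -0.03 ± 0.09 (SE), or -0.08 without Epac1-PLN replicate 4.

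Ptprg (ENSMUSG00000021745, chromosome 14) ranged from 38.3 to 52.7 CPM in wildtype and from 40.7 to 52.5 CPM in Epac1-PLN cells, a log2 difference of 0.04 ± 0.09 (SE), or -0.02 without Epac1-PLN replicate 4. Ptprj (ENSMUSG00000025314, chromosome 2) ranged from 1.33 to 2.24 and from 1.41 to 2.27 CPM, with 19 to 41 counts per library and a log2 difference of 0.04 ± 0.21 (SE). For both genes the groups covered nearly the same range. Over the 8 genes the median log2 difference was 0.04 and 6 were on the higher side, against a median of 0.00 and 51.0% higher over all tested genes. Several of these signs rest on values near 0: the count of higher members was 5 with upper-quartile scaling and 3 without Epac1-PLN replicate 4. The summed level of the family per kb was 40.6 ± 2.71 CPM per kb in wildtype and 45.2 ± 2.27 CPM per kb in Epac1-PLN cells (SD, n = 5), with overlapping ranges.

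Genes overlapping the members had low counts. Gm22370, which lies within Ptprk, had 0 counts in every library. The overlapping genes of the other members had at most 6 counts in any library. Only 4930473A02Rik, in Ptpra, and 5830432E09Rik, in Ptpre, share annotated exon bases with a member (327 and 209 bases), on the opposite strand. The sources do not say whether counting used strand. Whether reads in the shared bases were left out of both genes was not tested.

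Sex was a comparison that the choice of the genes had not used. Females were higher than males for 7 of the 8 genes, against 52.0% of all tested genes. The median log2 difference was 0.13 against 0.01 over all tested genes, but no member passed the test adjusted over all genes. By edgeR 0 of 8 members were called, against 0.34% of tested genes in either direction and 0.15% higher in females. DESeq2 and limma-voom also called 0 members. At an unadjusted p under 0.05 there were 2 members, Ptprk and Ptprm, against 10.4% of tested genes. The count on the female side was 6 in wildtype libraries alone, 5 without Epac1-PLN replicate 4 and 5 with the replicate number as a block.

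Ptprk was at 41.3 to 44.2 CPM in wildtype females and 36.0 to 39.4 CPM in wildtype males. It was at 56.8 to 61.2 CPM in Epac1-PLN females and 52.3 to 53.9 CPM in Epac1-PLN males. Every female was therefore above every male of the same genotype, which held for 2.53% of tested genes and for 1 of the 8 members. With the genotypes pooled, 0 members had sexes without overlap, against 2.08% of tested genes. The log2 difference of females over males was 0.17 ± 0.06 (SE), with a 95% interval of 0.04 to 0.30 and an adjusted p of 0.365 (edgeR). Ptprm differed by 0.17 ± 0.07 (SE), with a 95% interval of 0.02 to 0.32 and an adjusted p of 0.406 (edgeR). In wildtype its females stood at 205 to 232 CPM and its males at 180 to 184 CPM, whereas in Epac1-PLN cells the ranges overlapped (226 to 253 and 220 to 237 CPM). Intervals of the other 6 genes all held 0, and the widest was that of Ptprj, -0.23 to 0.70.

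The genotype-by-sex term asks whether the difference between genotypes is larger in females than in males. It was called for 0 of 12629 genes by edgeR, with 474 genes (3.75%) at an unadjusted p under 0.05, for 1 gene by DESeq2 and for 0 by limma-voom. None of the 8 members was called by any of the 3 tools, and 0 members had an unadjusted p under 0.05. For Ptprk the term was -0.03 with a 95% interval of -0.30 to 0.25 on the log2 scale, and its sign turned with upper-quartile scaling (0.02) and with no scaling factors (0.04). The separate log2 differences between genotypes were 0.47 ± 0.09 in females and 0.50 ± 0.12 in males (SE). Ptpra had a term of 0.33, with a 95% interval of -0.03 to 0.70 and an adjusted p of 0.993 (edgeR). Its log2 difference between genotypes was 0.11 in females and -0.23 in males. Ptprj had the widest interval, -1.51 to 0.25, at the lowest counts of the family.

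**Figure D3:**
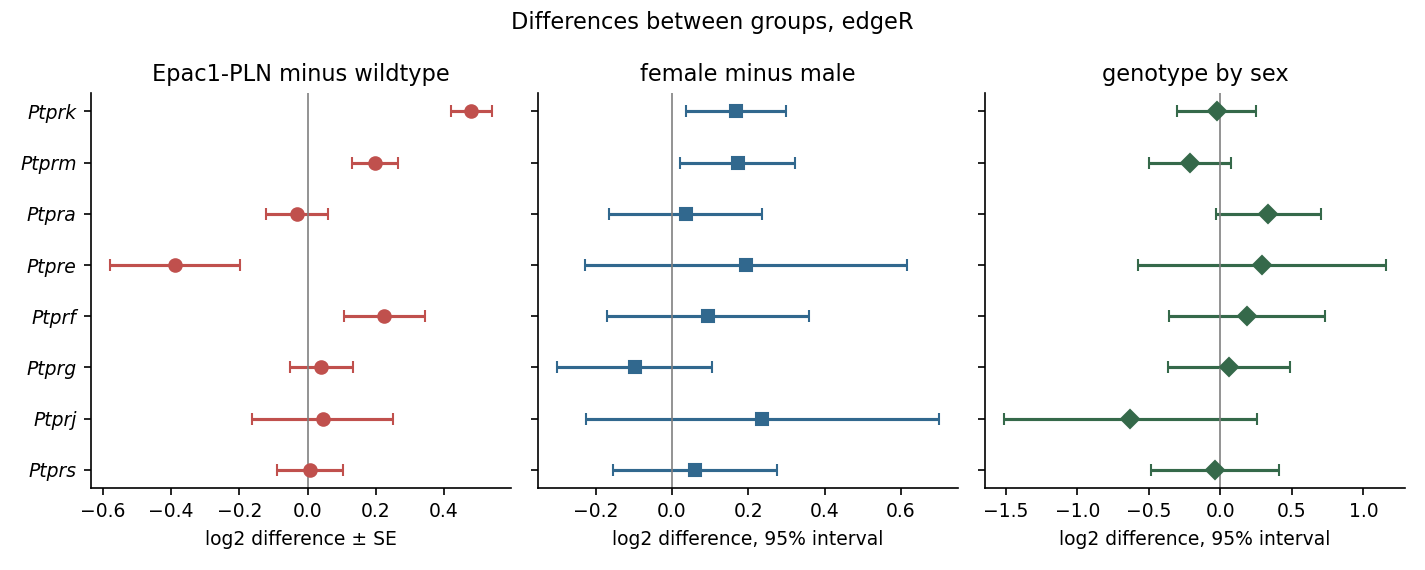
Log2 differences of the 8 genes between genotypes (left, with standard errors and no test), between sexes (middle) and for the genotype-by-sex term (right, both with 95% intervals) from edgeR on 10 libraries. Ptprk stands at 0.48 between genotypes; between sexes the intervals of Ptprk and Ptprm alone exclude 0.

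Because the preparations held transcripts of other cells, each member was set against marker genes of 6 cell types after the genotype and sex means had been removed from both. Ptpra was the member with relations past the adjusted threshold. The permutations shuffled the values left after that removal, with no allowance for the fitted means. The permutation p-values given here are therefore likely too small. Its Pearson r with the mean level of 12 endothelial markers was 0.87 over 10 libraries (permutation p = 0.00042, adjusted p = 0.0202 over 48 relations), and Spearman's rho was 0.90 (adjusted p = 0.0242, permutation test). Without Epac1-PLN replicates 2 and 4, the libraries farthest from the median marker level, r was 0.92. With 9 smooth muscle and pericyte markers r was 0.85 (adjusted p = 0.0421, permutation test) and rho 0.89 (adjusted p = 0.0242, permutation test), and r was 0.85 without wildtype replicate 3 and Epac1-PLN replicate 4. With cardiomyocyte markers r was -0.84 (adjusted p = 0.0421, permutation test) and rho -0.79 (adjusted p = 0.140, permutation test). This last relation rested on wildtype replicate 2 and Epac1-PLN replicate 4, since r was -0.52 without them. The r of Ptpra was 0.72 with fibroblast markers (adjusted p = 0.211, permutation test), 0.58 with Schwann cell and neuron markers and -0.12 with macrophage markers. Marker lists were measured in the same libraries, so the relations past the threshold are not separate observations. Ptpra thus tended to be higher in libraries with more endothelial and smooth muscle marker transcripts, once genotype and sex means were removed. Whether these relations would pass with an allowance for the removed means was not tested.

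No relation of the other 7 members passed the adjusted threshold. Those of Ptprk ran from an r of -0.41 with cardiomyocyte markers to 0.55 with macrophage markers (smallest adjusted p 0.493, permutation test, 10 libraries). Without the outermost libraries of each list, wildtype replicate 2 or 5 and Epac1-PLN replicate 4, these became 0.35 and 0.25. The same step moved Ptprm with endothelial markers from -0.35 to -0.92, without Epac1-PLN replicates 2 and 4, and Ptprf with macrophage markers from 0.71 to 0.84, without wildtype replicate 5 and Epac1-PLN replicate 4. The endothelial markers, 12 of 12 tested, summed to 570 to 884 CPM in wildtype and to 542 to 1093 CPM in Epac1-PLN cells, or at most 736 CPM there without replicate 4. The macrophage markers, 12 of 12 tested, summed to 33.6 to 67.4 CPM in wildtype and to 40.9 to 81.8 CPM in Epac1-PLN cells. The ranges of the genotypes overlapped for both lists. The part of other cell types in the Ptprk level was not tested.

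**Figure D4:**
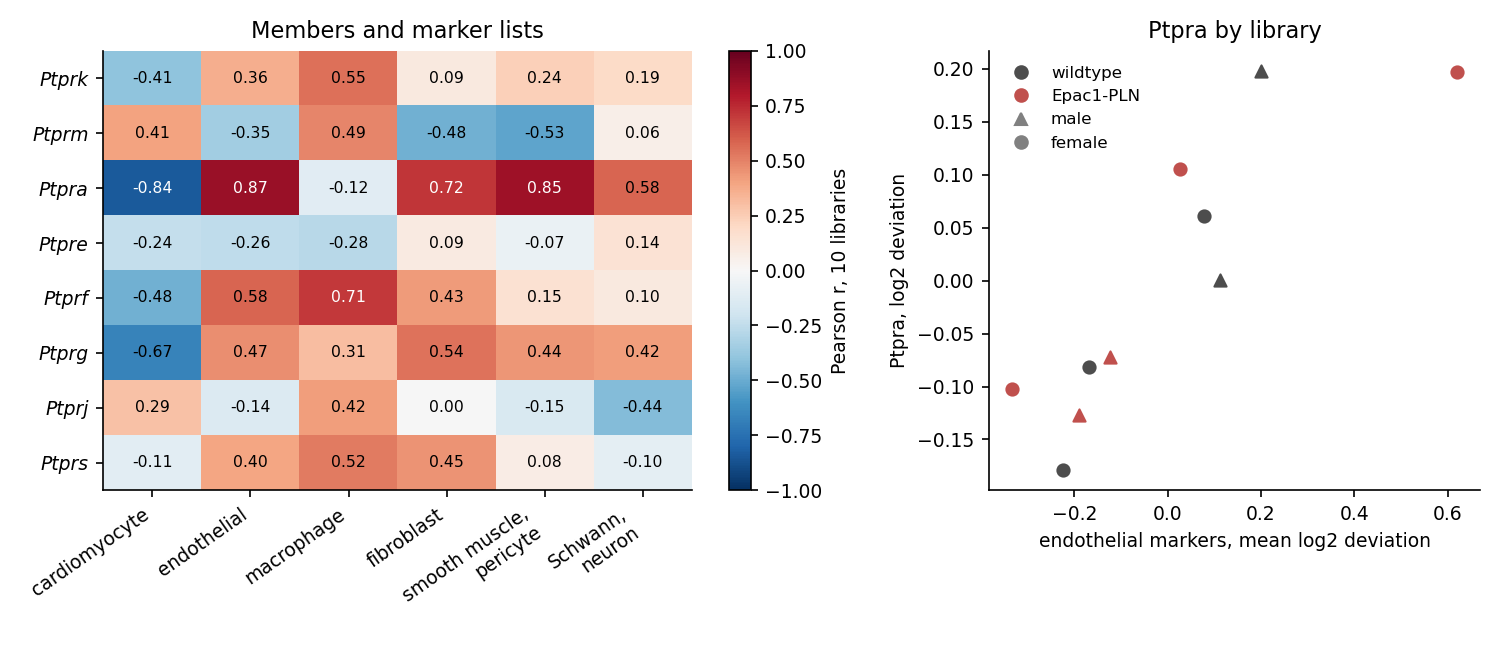
Left, Pearson r over 10 libraries between each gene (rows) and the mean log2 level of each marker list (columns) after removing genotype and sex means; right, the log2 deviation of Ptpra against that of the endothelial markers, one point per library. Ptpra has an r of 0.87 with endothelial and 0.85 with smooth muscle and pericyte markers.

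The genes whose levels were most like those of Ptprk were found among all tested genes by Pearson's r of log2 CPM over the 10 libraries. They were Atp6v0b (r = 0.97), Atp6v0a1 (0.96), St7 (0.96), Tm9sf1 (0.95) and Lman2l (0.94). Atp6v0b and Atp6v0a1 encode subunits of the vacuolar proton pump. All 5 had positive log2 differences between genotypes, from 0.22 for Tm9sf1 to 0.57 for Atp6v0a1, so that their likeness to Ptprk includes the difference used to choose it. After genotype and sex means were removed the 5 were Syde1 (r = 0.94), Ptdss1 (0.92), P4htm (0.91), Hivep3 (0.91) and again Tm9sf1 (0.90). Of the other members, Ptprm was the most like Ptprk (r = 0.81, rank 213 among all tested genes), and its r was 0.31 after those means were removed. The values share libraries and depth, and no p is given for genes picked as the highest.

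The other 13 receptor-type phosphatases were counted as well, and 8 of them passed the filter. By edgeR 0 of the 8 were called with genotype, against 0.641% of all tested genes, and 0 were called by DESeq2 or limma-voom. An unadjusted p under 0.05 (edgeR) was reached by 2 of them, against 1537 of the 12629 tested genes. That background also applies to the lists described below. The median log2 difference of these 8 phosphatases was 0.21, with 6 higher and 2 lower. Ptprb, the endothelial VE-PTP, had the highest level of them per length, at a mean of 5.91 CPM per kb over the 10 libraries, between those of Ptprm and Ptprs. Ptpro, known from podocytes and neurons, stood at 1.21 ± 0.401 CPM in wildtype and 1.88 ± 0.391 CPM in Epac1-PLN cells (SD, n = 5; log2 difference 0.65, adjusted p = 0.258, edgeR). Ptprn, a secretory granule protein whose phosphatase domain is inactive, stood at 10.1 ± 1.76 and 7.05 ± 1.38 CPM (-0.51, adjusted p = 0.188, edgeR). Ptpru, the third of the MAM-domain genes measured here above the filter, stood at 0.973 ± 0.334 and 1.38 ± 0.169 CPM (0.50, adjusted p = 0.452, edgeR). Ptprt, the remaining one, had at most 1 count in any library.

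Of the 17 non-receptor phosphatases 13 were tested and 0 called with genotype by edgeR, with 2 at an unadjusted p under 0.05. Ptpn11 (SHP2), which carries signals from growth factor receptors, had the smallest p. It stood at 481 ± 55.0 CPM in wildtype and 619 ± 87.3 CPM in Epac1-PLN cells, with a log2 difference of 0.36 ± 0.10 (SE) and an adjusted p of 0.125 (edgeR). DESeq2, which called 265 of the 12629 tested genes with genotype, called it (adjusted p = 0.0298), and limma-voom called 0 of the list. Ptpn12 and Ptpn1 had log2 differences of 0.20 and 0.16 and adjusted p-values of 0.342 and 0.449 (edgeR).

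The junction proteins on which Ptprk and Ptprm act gave 0 called genes of 10 tested (edgeR, DESeq2 and limma-voom), with 2 at an unadjusted p under 0.05 and a median log2 difference of 0.01. Jup, the plakoglobin of the intercalated disc, stood at 277 to 327 CPM in wildtype and 237 to 285 CPM in Epac1-PLN cells (-0.18, adjusted p = 0.354, edgeR). Ctnna3 and Ctnna1, the alpha-catenins, had log2 differences of 0.22 and -0.09. Of the 12 tyrosine kinase genes 0 were called by any of the 3 tools and 0 had an unadjusted p under 0.05. Met, Erbb2 and Fyn had the smallest p-values there, with log2 differences of -0.28, 0.16 and -0.07 and adjusted p-values of 0.532, 0.570 and 0.861 (edgeR).

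Among 16 tested ligands and co-receptors 1 was called higher with genotype by edgeR, DESeq2 and limma-voom, against 0.443% of all tested genes by edgeR. This was Cntn3, a contactin, the class of ligand that Ptprg binds. It was at 0 to 0.0952 CPM in wildtype and at 4.36 to 6.04 CPM in Epac1-PLN cells. Ptprg itself had no such difference. Cntn3 passed the count filter only through the Epac1-PLN libraries, and the lists were chosen with earlier results known. Its call was therefore largely set in advance, and nothing is read from it or from the share beside it. Cntn6 and Cntn1 had 0 counts in every library. Ncam1, a partner of Ptpra, stood at 1.10 ± 0.244 and 1.90 ± 0.564 CPM (0.78, adjusted p = 0.209, edgeR), and the heparan sulphate proteoglycan gene Gpc1 at 776 ± 99.2 and 895 ± 51.8 CPM (0.21, adjusted p = 0.324, edgeR).

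Of 6 tested intracellular partners of Ptprf and Ptprs 0 were called by edgeR, with 2 at an unadjusted p under 0.05. Ppfia1, a liprin that anchors these receptors, stood at 44.9 ± 4.93 CPM in wildtype and 60.7 ± 11.0 CPM in Epac1-PLN cells (log2 difference 0.44 ± 0.12 SE, adjusted p = 0.151, edgeR). DESeq2 called it (adjusted p = 0.0488), limma-voom did not, and edgeR did once Epac1-PLN replicate 2 was left out (log2 difference 0.53, adjusted p = 0.0439). Ppfia4 and Caskin2 had log2 differences of -0.63 and -0.12, the latter -0.23 without Epac1-PLN replicate 4. Of 11 proteases that cut receptor phosphatases 10 were on the higher side with a median log2 difference of 0.07, and 0 were called by any of the 3 tools, with 1 at an unadjusted p under 0.05. That was Furin, the convertase that splits the Ptprk precursor, at 113 ± 23.1 and 138 ± 33.2 CPM (0.30, adjusted p = 0.362, edgeR). Its log2 difference was 0.19 without Epac1-PLN replicate 4. Aph1a, a part of gamma-secretase, had a log2 difference of 0.16.

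With sex, 0 genes of these 6 lists and of the other receptor-type phosphatases were called by any of the 3 tools. The marker lists held 1 called gene by edgeR and a further 1 by DESeq2 alone, Dbh of the Schwann cell and neuron list (log2 difference -0.81, DESeq2 adjusted p = 0.0297, edgeR adjusted p = 0.147). Dcn, a fibroblast proteoglycan, was lower in females by edgeR (log2 difference -0.67 ± 0.10 SE, adjusted p = 0.00967). That call was lost without each of wildtype replicates 1 and 2 and Epac1-PLN replicate 1 (log2 differences -0.66, -0.63 and -0.64) and with the replicate number as a block (-0.72).

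The value for Ptprk moved little with the processing. Leaving out each library in turn gave log2 differences from 0.46, without wildtype replicate 1, to 0.50, without wildtype replicate 2. These are the same libraries refitted and add no independent measurement.

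**Figure D5:**
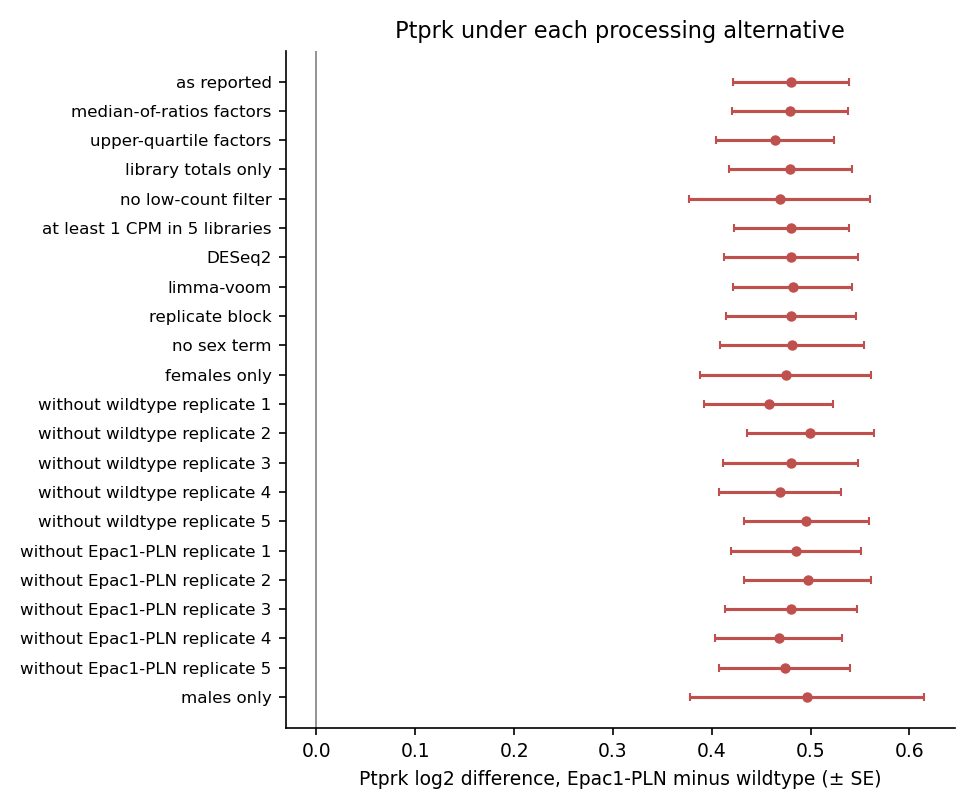
Log2 difference of Ptprk between Epac1-PLN and wildtype cells with its standard error under the reported processing (top) and 21 alternatives. The values lie between 0.46 and 0.50.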

How the data were processed

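Per the labels' protocols, total RNA of isolated cardiomyocytes was made into TruSeq libraries and sequenced on a HiSeq2000. The authors deposited whole-number counts for Ensembl genes. They also deposited a normalized signal, each count divided by a single factor per library (largest relative deviation 5.33e-15). Only the counts were tested. The submitters' processing notes name STAR 2.3.0, HTSeq 0.5.4, DESeq, DESeq2 and mm10, and the sources give no settings, annotation or strand. Genes without a symbol held 0.0142% of counts.

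The whole table was filtered with filterByExpr on genotype (12629 genes), scaled by TMM factors and fitted with edgeR 4.0.16 (robust quasi-likelihood F test, sex and genotype in the model, Benjamini-Hochberg at 0.05, R 4.3.3). Standard errors are the absolute log2 difference over the square root of F. The genotype-by-sex term came from a second model. Levels are CPM with TMM factors, as mean ± SD. Exon lengths are unions of GENCODE M21 exons. Relations with markers used log2 CPM (prior count 2), 100000 permutations, two-sided, with no allowance for the genotype and sex means removed beforehand. Intervals and counting variation cover counting and replicate error as stated, and the sources name no molecular identifiers.

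The members and lists were chosen with earlier results of these data known. Genes named are the members, every called list gene, the 3 smallest genotype p-values of each list that is not a marker list, the 5 genes most like Ptprk, and genes overlapping a member; 1 gene of that rule and 1 member's catalytic stretch are not reported here. Alternatives were DESeq2 1.42.0, limma-voom 3.58.1, other scalings, filters and covariates, and each library left out. Males alone was added after seeing the data. Protein sequences were not used here, and residues were translated from the coding bases. The steps were tested on simulated counts.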

Additional observations from a re-analysis of the deposited data

How the results depend on the processing

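Of the 8 genotype differences of the members, those of Ptprk, Ptprm, Ptpre and Ptprf kept their sign in all 21 alternatives. Ptpra and Ptprj moved by more than the spread between replicates in males alone, to -0.23 and 0.43. In the sex and genotype-by-sex comparisons 0 members were called in any alternative.

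The number of genes called with genotype was 81. It was 498 with no low-count filter, 265 by DESeq2, 37 with no sex term, 4 in females alone, 13 in males alone and 14 to 103 when a library was left out (the lowest without wildtype replicate 1, the highest without the second Epac1-PLN library). With sex it was 43, and 521 with no filter, 158 by DESeq2, 145 in wildtype libraries alone and 18 to 93 when a library was left out. For the genotype-by-sex term it was 0, and 164 with no filter, 1 by DESeq2 and 0 to 6 when a library was left out. With the replicate block the genotype and sex counts were 2 and 3. Whether the replicate numbers pair the libraries could not be told. Of 5 same-numbered pairs 3 had a correlation of deviations over 0.1, in a range from -0.30 to 0.35. Differently numbered pairs ranged from -0.26 to 0.25, and differences between the sexes were left in these deviations. Furin, Ppfia1, Ptpn11 and Ptprn were called with genotype when no low-count filter was used. The cause of these moves was not tested.

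Depth limits Ptprj (19 to 41 counts per library, a counting variation of about 18.7%) and Ptpre most. Counts per gene do not separate isoforms.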

Other observations

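All 12 endothelial markers had a positive genotype-by-sex term, with a median of 0.62 on the log2 scale against 0.00 over all tested genes, and 0 of them were called (edgeR, DESeq2 and limma-voom), with 2 at an unadjusted p under 0.05. Without Epac1-PLN replicate 4 the 12 terms were still positive, with a median of 0.27. Fibroblast markers were positive for 9 of 10, and for 4 of 10 without that library. In the same 2 fits macrophage markers were positive for 5 and 1 of 12, and cardiomyocyte markers for 2 and 6 of 10. Smooth muscle and pericyte markers were positive for 6 and 4 of 9, and Schwann cell and neuron markers for 2 of 4 both times. The markers of a list were measured in the same libraries, with 2 males per genotype, so their terms are not independent. The endothelial summed level was 1093 CPM in Epac1-PLN replicate 4, a female, and 542 to 884 CPM in the other 9 libraries.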
